A study of Rattus norvegicus with 18 samples.

Results

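Rat primary hepatocytes exposed to EMD 30 µM were compared between 72 h and 24 h of treatment. The 6 cultures concerned, 3 at each time, were all arrays labelled with that dose and those times, out of 18 in the series. EMD is an agonist of the peroxisome proliferator-activated receptors alpha and gamma. The cells came from livers of Wistar rats, were left to attach for 24 h, and were then kept in Dulbecco's modified Eagle's medium with gentamicin, insulin and hydrocortisone. The medium of the EMD groups held EMD at 30 µM or 100 µM, and that of the vehicle group held 0.1% dimethyl sulfoxide (DMSO). Whether the EMD media also held DMSO is not given in the labels, and neither are the sex and age of the rats. Each of the 6 groups (DMSO, EMD 30 µM and EMD 100 µM, each at 24 h and 72 h) had 3 arrays. The vehicle cultures of the same ages show how hepatocytes changed between the same times without EMD, and the 100 µM cultures show a higher dose.

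As background, the peroxisome proliferator-activated receptors are nuclear receptors that bind fatty acids and pair with the retinoid X receptor. In rodent liver the alpha form switches on genes of fatty acid uptake, mitochondrial and peroxisomal oxidation and omega-hydroxylation, while the gamma form is best known from adipocytes, where it drives lipid storage. Hepatocytes in culture are also known to lose part of their liver-specific expression with time, so a change between 24 h and 72 h may belong to the culture, to the drug or to both.

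RNA was hybridised to Affymetrix rat arrays, and each value is a log2 expression value from robust multi-array averaging (RMA), which places the arrays on a common distribution. A difference of 1 on this scale is a doubling, and a value is compared only with values of the same probe set on other arrays. Values ran from 2.39 to 14.77, and the array medians from 5.04 to 5.11. A probe set near or under the middle of the medians, 5.08, has no shown signal over background. The 3 arrays of each EMD 30 µM group correlated at 0.9922 to 0.9958, against 0.9783 to 0.9876 between 24 h and 72 h. Control probes at both ends of the beta-actin, Gapdh and hexokinase transcripts show how evenly each was copied. For beta-actin the 3′ probes exceeded the 5′ probes by 1.33 ± 0.0532 (SD, n = 3) at 24 h and 0.848 ± 0.0405 at 72 h under EMD 30 µM, and 1.31 ± 0.0391 and 0.698 ± 0.0533 in DMSO. For Gapdh the excess went from 0.266 to 0.172 under EMD 30 µM and from 0.289 to 0.168 in DMSO. For hexokinase it went from 1.63 to 1.5 under EMD 30 µM and from 1.4 to 1.57 in DMSO. The beta-actin excess therefore fell with time in both, while hexokinase moved in opposite directions. The part of these shifts in the results below was not tested. In these bulk cultures, fewer cells of a type and less RNA per cell cannot be told apart.

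Between 24 h and 72 h under EMD 30 µM, 4221 of 31042 probe sets changed (limma, Benjamini-Hochberg adjusted p under 0.05), 2312 upward (7.45%) and 1909 downward (6.15%), together 13.6%. Read as 14217 named genes, each through its brightest probe set, 1103 rose (7.76%) and 1121 fell (7.88%), together 15.6%. Most of the changes were small. Of the genes that rose, 580 did so by under 1.5-fold and 25 by over 4-fold. Of those that fell, 690 did so by under 1.5-fold and 36 by over 4-fold. The number of calls rests on all 6 arrays: without replicate 1 at 24 h 2668 probe sets were called, and without replicate 2 at 72 h 2662.

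In the vehicle cultures, which share no array with the EMD cultures, 1686 genes rose (11.9%) and 1693 fell (11.9%) between the same times. Of the 1103 genes that rose under EMD 30 µM, 622 also rose in DMSO, which is 56.4% of the former and 36.9% of the 1686. Of the 1121 that fell, 609 also fell in DMSO, 54.3% of the former and 36% of the 1693. A further 476 rises and 500 falls were not called in DMSO, which does not by itself show a difference, since 988 of the 1103 rises and 1006 of the 1121 falls had the same sign there. A total of 17 genes were called in opposite directions, 5 upward and 12 downward under EMD.

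Among the 15 largest rises were channels and carriers of lipid and glycerol. Aqp3, a channel for water and glycerol, read 4.80, 6.73 and 5.81 on replicates 1 to 3 at 24 h and 9.75, 10.52 and 10.31 at 72 h under EMD 30 µM. It stayed between 4.13 and 4.67 on all 6 vehicle arrays. Its rise of 4.41 ± 0.41 (SE) was 21.3-fold (limma adjusted p = 3.83e-06). Aqp7, the glycerol channel best known from adipocytes, read 8.13, 9.51 and 8.94 at 24 h and 11.47, 11.97 and 11.66 at 72 h, a rise of 2.84 ± 0.30 (adjusted p = 1.43e-05). The DMSO arrays lay lower at both times, at 4.14 to 4.51 and 5.04 to 5.72. Fabp3, the heart-type fatty acid binding protein, read 7.46, 7.71 and 7.30 and then 11.55, 11.21 and 10.57, a rise of 3.62 ± 0.31 (adjusted p = 1.29e-06). In DMSO it read 4.89 to 5.08 at 24 h and 4.51 to 4.89 at 72 h. Cd36, a fatty acid transporter of the cell surface, read 10.19, 10.56 and 11.24 and then 13.10, 13.20 and 13.24. Its 2.52 ± 0.33 rise (adjusted p = 8.44e-05) was joined by a larger one in DMSO, 4.80, from 4.51 to 5.63 up to 9.77 to 9.95. The 24 h and 72 h arrays of the EMD cultures did not overlap in these 4 genes, as the choice of the 15 required and as was the case for 36.3% of all genes.

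A further group of large rises began at or under the middle of the array medians, so that its folds depend on values with no shown signal at 24 h. These 6 genes were Cd24, a surface glycoprotein, Lrrc39, Scd2, a stearoyl-CoA desaturase, Map2, a microtubule-associated protein of neurons, Cbr3, a carbonyl reductase, and Krt23, a keratin. Lrrc39 read 4.04, 4.15 and 3.79 at 24 h and 6.59, 7.75 and 8.10 at 72 h. Krt23 read 3.58, 3.52 and 3.80 and then 6.08, 6.38 and 6.06. Cd24 read 4.23, 4.26 and 5.13 and then 8.53, 7.88 and 8.08, a rise of 3.62 beside one of 4.92 in DMSO, a difference that did not pass (adjusted p = 0.263). Scd2 rose by 3.34 through its brightest probe set, while its other 3 probe sets moved by 0.00 to 0.67, and Map2 by 3.02 against 0.15 on its other one. The remaining 5 of the 15 were Prss23, a serine protease (3.10), Clec14a, a lectin of endothelium (2.98), Nefl, the neurofilament light chain (2.85), Slc25a4, a mitochondrial ADP/ATP carrier (2.79), and Qpct, which cyclises N-terminal glutamine (2.66). All 5 also rose in DMSO, by 1.14 to 4.26. Nefl varied most, with 6.16, 4.36 and 6.08 at 24 h against 9.89, 7.72 and 7.56, and its call (adjusted p = 0.0432) was lost when any 1 of the 6 arrays was left out, at changes of 2.10 to 3.27.

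The 15 largest falls included 4 cytochromes P450 and 3 members of the list of interferon-inducible genes. Serpina3c, a serine protease inhibitor, read 12.24, 11.77 and 11.50 at 24 h and 7.84, 6.82 and 8.04 at 72 h, a change of -4.27 ± 0.32, 19.3-fold (limma adjusted p = 3.94e-07). In DMSO the same probe set changed by -4.07. Il1r2, the decoy receptor for interleukin 1, read 7.99, 7.96 and 7.50 at 24 h. At 72 h its values were 3.41, 3.62 and 3.73, under the array medians, a change of -4.23 ± 0.32 (adjusted p = 4.14e-07). The vehicle arrays went only from 9.09 to 10.22 down to 7.81 to 9.10. Cyp3a2, a steroid and drug hydroxylase, read 10.54, 10.61 and 9.71 and then 6.49, 6.39 and 6.51, a change of -3.82 ± 0.29, and its change in DMSO was -5.55. Apoa2, an apolipoprotein of high-density lipoprotein, read 12.07, 11.88 and 11.97 and then 8.86, 8.99 and 9.74. Slc27a5, which activates bile acids and fatty acids, read 8.41, 8.62 and 9.82 and then 6.04, 5.37 and 6.70, and changed by -2.91 ± 0.51 against -0.95 in DMSO, which was not called there (adjusted p = 0.201).

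The other 10 changes lay between -3.58 and -2.78. They were Isg15, Mx2 and Usp18, described with the interferon-inducible genes, the P450s Cyp1a2, Cyp3a9 and Cyp2c7, the protease inhibitor Serpina3l, Serpina6, which is corticosteroid-binding globulin, the class I histocompatibility gene RT1-S3 and the urinary protein gene Rup2. Each of the 10 also fell in DMSO, by changes of -3.95 to -1.50. Serpina3, Rup2, RT1, Cyp2c and Cyp3a genes belong to families of near-identical copies, and a probe set may read several of them, so which member moved is uncertain.

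**Figure D1:**
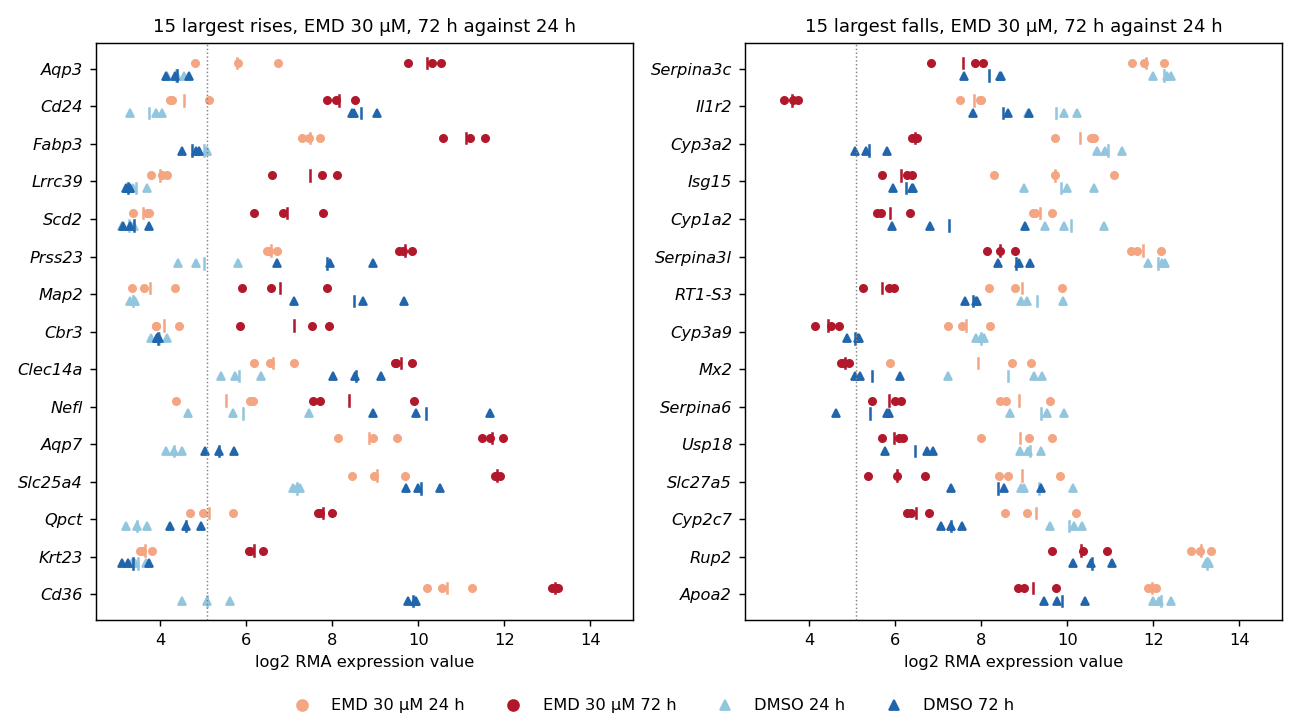
Log2 RMA value (x axis) of the 15 genes with the largest rises (left) and the 15 with the largest falls (right) between 24 h and 72 h of EMD 30 µM, with EMD arrays as circles, DMSO arrays as triangles, group means as vertical bars and the middle of the array medians, 5.08, as a dotted line. The EMD groups do not overlap in any of the 30 genes, which the choice required, and Aqp3, Fabp3, Lrrc39, Scd2, Cbr3 and Krt23 moved with EMD while the DMSO triangles stayed together.

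In the fit to all 18 arrays, each gene of mitochondrial or peroxisomal fatty acid oxidation that passed the test under EMD 30 µM rose. This and all list counts below stand beside 7.76% of all genes that rose and 7.88% that fell under EMD 30 µM. In DMSO these shares were 11.9% each. Of 23 measured genes of mitochondrial beta-oxidation and the carnitine shuttle, 13 rose and 10 did not pass, with a median change of 0.52 against -0.02 over all genes. Slc22a5, the carnitine transporter, read 8.24, 8.33 and 8.45 at 24 h and 9.70, 9.77 and 9.70 at 72 h, a rise of 1.38 ± 0.10 (adjusted p = 2.27e-07). Slc25a20, which carries acylcarnitines into mitochondria, read 10.33, 10.75 and 10.55 and then 11.28, 11.48 and 11.49 (0.87 ± 0.13). Crat, carnitine acetyltransferase, and Echs1, enoyl-CoA hydratase, rose by 0.89 and 1.08, and Acat1, which makes acetoacetyl-CoA for ketone bodies, by 0.94. In DMSO 15 of the 23 genes rose and none fell, with a median of 0.44. The vehicle arrays lay lower throughout: the mean level of the 23 genes was 11.04 to 11.19 under EMD and 9.08 to 9.16 in DMSO at 24 h, and 11.61 to 11.65 and 9.59 to 9.94 at 72 h. Eci1, an isomerase of unsaturated fatty acids, was the 1 member for which the difference of the time changes between EMD and DMSO was called, at 0.18 against 1.63.

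Of 36 genes of peroxisomal fatty acid oxidation and peroxins (proteins that build the organelle), 10 rose, none fell and 26 did not pass, with a median of 0.34. In a fit on only the arrays compared 20 rose, and with array weights 17 rose and 1 fell. Hacl1, which shortens branched fatty acids, read 10.46, 10.34 and 10.56 and then 11.80, 11.57 and 11.87, and changed by 1.29 ± 0.26 (adjusted p = 0.00267), against 0.58 in DMSO. Pex19, a chaperone for peroxisomal membrane proteins, rose by 1.23, Acot8, an acyl-CoA thioesterase, by 1.11 and Nudt7, a coenzyme A hydrolase, by 1.07. In DMSO 16 of the 36 rose and 1 fell, with a median of 0.43. Among 8 CYP4 fatty acid hydroxylases, Cyp4f4 (1.12) and Cyp4a1 (0.79) rose and Cyp4f1 (-0.57) fell, but all 3 calls were lost when single arrays were left out: Cyp4a1 without any 1 of the 6 (0.71 to 0.87), Cyp4f4 without any but replicate 3 at 24 h (1.02 to 1.26 over the 6 omissions) and Cyp4f1 without any but replicate 1 at 72 h (-0.72 to -0.47 over the 6). In DMSO Cyp4f4 rose by 1.19 and Cyp4f1 changed by -0.4. Cyp4a1 rose there by 2.48, more than under EMD, a difference of -1.69 (limma adjusted p = 0.0219). At 24 h it read 12.58 to 12.88 under EMD and 7.14 to 7.85 in DMSO. Cyp4a3 read 13.27, 13.38 and 13.31 at 24 h and 13.54, 13.73 and 13.68 at 72 h, a change of 0.33 that did not pass (adjusted p = 0.384), while it rose from 8.60 to 8.76 up to 10.68 to 12.06 in DMSO.

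Uptake and storage genes moved more unevenly. Of 22 genes of fatty acid uptake, activation and binding, 12 rose and 2 fell, with a median of 0.42. Besides Fabp3 and Cd36, Lpl, lipoprotein lipase, changed by 1.36 ± 0.11 (adjusted p = 1.14e-06), from 3.47, 3.43 and 3.54 to 5.19, 4.65 and 4.70, values near or under the array medians. Its DMSO arrays stayed between 3.55 and 3.78. Fabp5, an epidermal-type fatty acid binding protein, and Slc27a5 fell, by changes of -0.88 and -2.91. Of 31 genes of lipid droplets and lipolysis, 8 rose and 1, Cideb, fell (-0.41), with a median of 0.13, and 5 rose without replicate 2 at 72 h. After Aqp3 and Aqp7 the largest were Cidea, a droplet fusion protein, at 0.77, and Plin4, a droplet coat protein, at 0.75. Cidea read 12.24, 12.73 and 12.43 and then 13.26, 13.31 and 13.13, and lost its call without replicates 1 or 3 at 24 h or 1 or 2 at 72 h (0.66 to 0.90 over the 6 omissions). In DMSO 3 of the 31 rose and 3 fell, beside 11.9% of all genes each way. The call of Cideb was lost without any 1 array but replicate 1 at 72 h, and 2 genes fell with the replicate number as a block.

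Of 21 genes of fatty acid synthesis, desaturation and elongation, 6 rose and 2 fell under EMD, against 2 and 4 in DMSO, with medians of 0.28 and -0.10, and 4 fell under EMD with the block. Thrsp, a thyroid-hormone-responsive protein of lipogenic tissues, read 9.86, 10.27 and 9.96 and then 11.93, 11.33 and 10.90 (1.36 ± 0.29, adjusted p = 0.00417). Fads2, the delta-6 desaturase, read 8.52, 8.34 and 8.59 and then 10.41, 9.61 and 9.26, and Elovl2, an elongase of polyunsaturated fatty acids, changed by 1.09. In all 3 genes replicate 1 was the highest at 72 h. Without it 3 of the 21 genes rose, and neither Fads2 (0.95) nor Elovl2 (0.92) was called. Elovl2 was also lost without replicate 1 (1.12) or 2 (0.92) at 24 h. Of 20 genes of cholesterol synthesis, 4 rose (Hsd17b7, Lss, Pmvk and Fdps, by 1.29, 0.93, 0.56 and 0.54) and none fell, with a median of 0.29. Lss, lanosterol synthase, kept its call without any single array, from 7.20, 6.83 and 6.92 to 7.73, 8.05 and 7.97. Hsd17b7, Pmvk and Fdps lost theirs without 4, 3 and 5 of the 6 arrays in turn. The 4 calls became 1 without replicate 2 at 24 h or replicate 3 at 72 h and 2 without replicate 3 at 24 h or replicates 1 or 2 at 72 h. The list's mean level was 9.32, 8.74 and 8.95 on replicates 1 to 3 at 24 h and 9.31, 9.21 and 9.31 at 72 h. Replicate 1 was the highest array at 24 h for 17 of the 20 genes, and its mean hardly moved with time.

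The respiratory chain and ATP synthase genes moved by small amounts in 1 direction. Of 31 members and uncoupling proteins measured, 19 rose and none fell, the lowest change being 0.02 and the median 0.36. In DMSO 10 rose and 1 fell, with a median of 0.12. Ndufs3, of complex I, read 9.95, 10.21 and 10.14 and then 10.65, 10.72 and 10.57 (0.55 ± 0.11). Uqcrfs1, the Rieske subunit of complex III, and Cox6a1, of complex IV, rose by 0.53 and 0.51, the latter by 0.51 in DMSO as well. Ucp3, an uncoupling-family carrier, stood apart. It read 5.52, 5.58 and 5.51 at 24 h and 6.70, 7.15 and 6.92 at 72 h, a change of 1.39 ± 0.11 (adjusted p = 7.34e-07), and it fell in DMSO from 5.29 to 5.58 down to 4.93 to 5.10. Without a single array, 14 to 16 of the 31 rose.

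**Figure D2:**
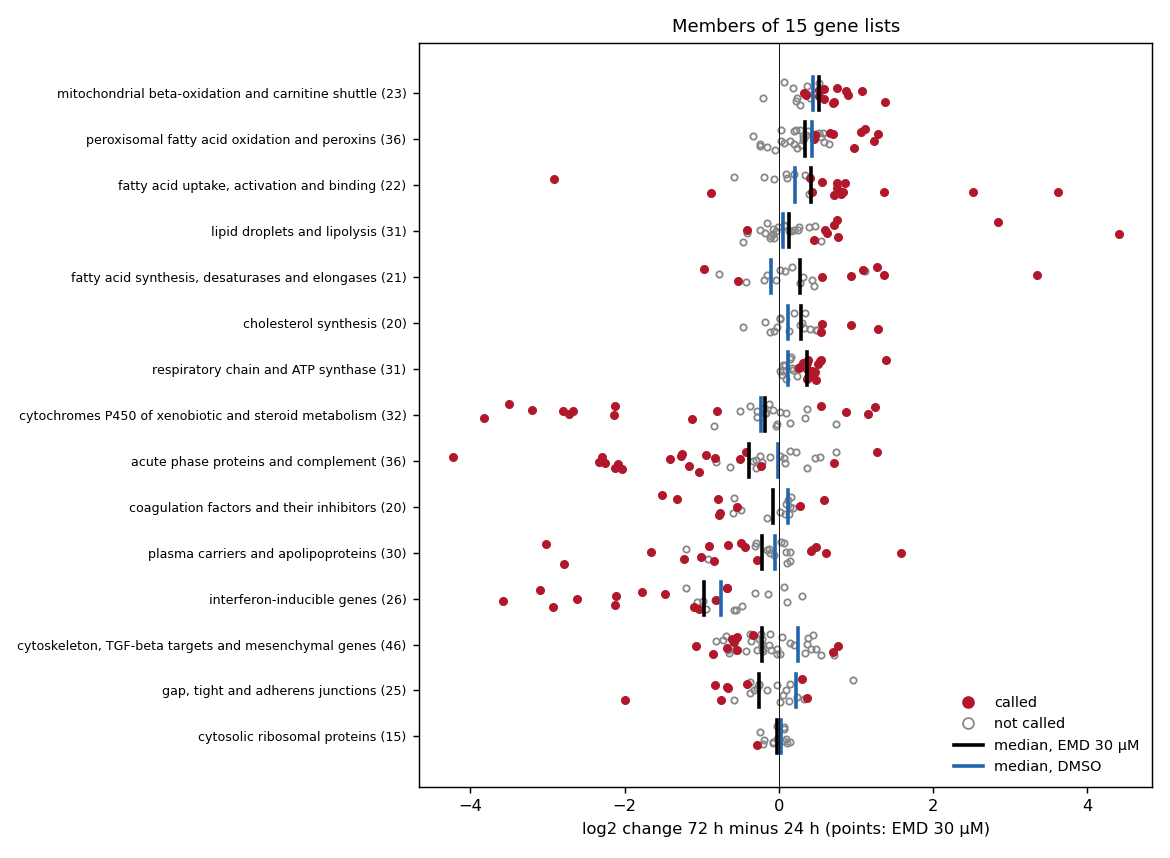
Log2 change from 24 h to 72 h (x axis) of every measured member of 15 gene lists under EMD 30 µM, with called genes filled, genes not called open, and the list median under EMD 30 µM (black) and under DMSO (blue) as bars. The EMD medians of the fatty acid and respiratory lists lie to the right of 0 and those of the interferon-inducible and acute phase lists to the left. Most lists have members on both sides of 0. The EMD and DMSO medians fall on opposite sides of 0 for the cytoskeleton, junction, coagulation, fatty acid synthesis and ribosomal lists, the last at only -0.02 and 0.03.

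The receptors themselves did not pass the test. Ppara read 6.59, 6.63 and 6.29 at 24 h and 6.55, 6.49 and 6.32 at 72 h (-0.05 ± 0.20, limma adjusted p = 0.915), Ppard changed by -0.27 and Pparg by 0.14, and the arrays of both times overlapped in all 3. The sign of Ppara turned to 0.01 and 0.02 without replicate 2 at 24 h or 3 at 72 h, and that of Pparg to -0.09 and -0.01 without replicate 1 at 24 h or 3 at 72 h. In DMSO Ppara changed by -0.60 (adjusted p = 0.0409), and the difference of the time changes did not pass (0.55, adjusted p = 0.442). Of 27 nuclear receptors and liver-enriched transcription factors, 8 rose and 3 fell under EMD, against 3 and 5 in DMSO. Cebpa, a factor of hepatocyte and adipocyte differentiation, read 7.74, 8.06 and 8.0 and then 9.09, 9.12 and 9.04 (1.15 ± 0.23, adjusted p = 0.00336), and its other 4 probe sets moved by 0.74 to 1.41. Nr1h4, the bile acid receptor FXR, rose by 1.06, from 7.69, 7.92 and 8.01 to 8.84, 8.90 and 9.05. Nr1i3, the constitutive androstane receptor, changed by 1.50, and lost its call without replicates 1 or 2 at 24 h or 1 or 3 at 72 h (1.31 to 1.71 over the 6 omissions). The 3 that fell were Esrra (-0.39), Hnf4a (-0.44, a call lost without replicates 2 or 3 at either time) and Cebpd (-1.03), and Cebpd moved by -0.42 and 0.10 on its other probe sets. The other 2 probe sets of Hnf4a both moved by 0.13 and did not pass. The 8 rises became 4 without replicate 1 at 24 h and 5 without replicate 3 at 24 h or replicates 2 or 3 at 72 h.

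Cytochromes P450 of xenobiotic and steroid metabolism fell more often than they rose, as they did in DMSO. Of 32 genes, 10 fell and 4 rose under EMD (median -0.19), and 13 fell and 3 rose in DMSO (median -0.24). Cyp1a2, which oxidises aromatic amines, read 9.25, 9.19 and 9.65 and then 5.67, 5.58 and 6.34. Cyp3a9 read 8.19, 7.54 and 7.23 and then 4.70, 4.12 and 4.51, and Cyp2c7, a retinoic acid hydroxylase, 10.21, 9.05 and 8.56 and then 6.79, 6.26 and 6.37. Cyp2e1, the ethanol-inducible form, changed by -2.14 ± 0.45, against -4.18 in DMSO. The 4 rises were Cyp2j4 (1.25), Cyp2j3 (1.15), Cyp2d3 (0.87) and Cyp3a23-3a1 (0.54), and with 1 array left out 1 to 3 of the 32 genes rose. Cyp2c11, the testosterone hydroxylase of male rats, read 10.64, 10.33 and 11.08 at 24 h and 8.15, 8.14 and 9.36 at 72 h under EMD, while the vehicle arrays read 11.16, 11.10 and 11.01 and then 11.56, 12.53 and 12.24.

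Of 32 conjugating enzymes 6 rose and none fell, and 13 rose and 1 fell with the replicate number as a block. Gstm7, a glutathione transferase, read 5.91, 6.28 and 6.77 and then 7.93, 8.29 and 8.66 (1.97 ± 0.31, adjusted p = 0.000405), and Gstt1, another, rose by 1.14 ± 0.11. In DMSO 11 rose and 2 fell. Among 28 genes of bile acid synthesis, conjugation and transport, 4 rose and 2, Slc27a5 and the canalicular pump Abcc2 (-1.26), fell. Over all genes 7.76% rose and 7.88% fell. Slco1a1, an organic anion importer, read 5.20, 5.11 and 6.14 and then 7.64, 6.89 and 6.86 (1.65). Cyp8b1, the sterol 12-alpha-hydroxylase, changed by 1.47, a call lost without any single array but replicate 2 at 24 h (1.26 to 1.64 over the 6 omissions). The 4 rises were 2 without replicate 3 at 24 h or any of the 72 h arrays. Of 46 genes of amino acid breakdown and the urea cycle, 10 rose and 5 fell, while 17 rose in a fit on only the arrays compared and 2 fell without replicate 1 at 24 h. Ass1, argininosuccinate synthase, fell from 11.26, 10.76 and 11.03 to 9.40, 9.72 and 9.36 (-1.52 ± 0.22), while in DMSO it changed by 0.06. Ddc, Bckdha and Tdo2, which act on aromatic amino acids, branched-chain keto acids and tryptophan, rose by 1.44, 1.31 and 1.23, and by 1.54, 1.17 and 0.93 in DMSO. Ddc and Bckdha moved by -0.19 and -0.29 on their other probe sets.

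Secreted proteins of the acute phase response fell. Of 36 genes of acute phase proteins and complement, 17 fell and 2, Cfd (1.27) and Masp2 (0.71), rose, with a median of -0.39, and 5 rose with the block. In DMSO 7 fell and 3 rose, with a median of -0.01. A2m, alpha-2-macroglobulin, read 13.75, 13.66 and 13.73 at 24 h and 11.85, 11.04 and 11.49 at 72 h (-2.25 ± 0.18, limma adjusted p = 7.28e-07), and Itih4, an inter-alpha-trypsin inhibitor chain, 12.03, 11.86 and 11.88 and then 10.09, 9.32 and 9.49. In DMSO their 72 h arrays still read 13.01 to 13.45 and 11.09 to 11.95. Hamp, the iron hormone hepcidin, read 10.31, 9.08 and 8.84 and then 7.68, 6.89 and 6.69, a change of -2.33 that was not called without replicate 1 at 24 h (-1.88) or replicate 3 at 72 h (-2.13). Serpina1, alpha-1-antitrypsin, read 13.85, 13.60 and 13.71 and then 13.01, 12.55 and 12.51, while all DMSO arrays lay between 13.63 and 13.79. The mean level of the 36 genes was 10.15 to 10.42 at 24 h and 9.49 to 9.78 at 72 h under EMD, and 10.56 to 10.66 and 10.23 to 10.48 in DMSO. Without replicate 1 at 24 h or replicate 3 at 72 h, 11 of the 36 fell.

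Of 20 coagulation factors and inhibitors, 6 fell and 2, Tfpi (0.59) and F2 (0.28), rose under EMD, and 1 fell and 1 rose in DMSO. Without any single array 1 or none of the 2 rises was called. Klkb1, plasma prekallikrein, read 6.07, 5.79 and 5.40 and then 4.34, 4.03 and 4.33, and Serpind1, heparin cofactor II, changed by -1.32. The fibrinogen chain Fgg read 12.85, 12.43 and 12.40 and then 12.10, 11.59 and 11.63 (-0.79 ± 0.15, adjusted p = 0.00246). Fga changed by -0.77, and was not called without replicate 1 at 24 h (-0.60) or replicates 2 (-0.64) or 3 (-0.69) at 72 h, and its other probe set moved by -0.01. Of 30 plasma carriers and apolipoproteins, 11 fell and 4 rose, and 7 fell without replicate 1 at 24 h or replicate 2 at 72 h. Apoc4, a small apolipoprotein, changed by -1.66 ± 0.17, against -0.43 in DMSO. Serpina7, thyroxine-binding globulin, rose by 1.58 from 3.31, 3.85 and 4.33 to 5.12, 5.51 and 5.59, and its DMSO arrays stayed between 3.31 and 3.71.

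Interferon-inducible genes fell in both media, and their 24 h levels differed between cultures. Of 26 measured genes, 13 fell and none rose under EMD 30 µM, with a median of -0.97, and 12 fell and none rose in DMSO, with a median of -0.75. The difference of the time changes between EMD and DMSO was called for no member, which does not show that there was none. Isg15, a ubiquitin-like modifier, read 11.09, 9.72 and 8.29 at 24 h and 6.27, 5.70 and 6.39 at 72 h (-3.58 ± 0.63, limma adjusted p = 0.0011). Irf7, a transcription factor of the interferon response, read 10.09, 8.74 and 7.96 and then 6.19, 6.28 and 6.48, and Usp18, which removes Isg15 from proteins, 9.64, 9.10 and 7.98 and then 6.17, 5.68 and 6.08. Mx2, an antiviral GTPase, read 9.15, 8.72 and 5.88 and then 4.81, 4.93 and 4.73, and was not called without replicates 1 (-2.47) or 2 (-2.69) at 24 h. Replicate 1 was the highest of the 3 arrays at 24 h for 24 of the 26 genes and replicate 3 the lowest for 22. The list's mean level was 8.34, 7.52 and 7.03 on replicates 1 to 3 at 24 h, a range of 1.31, and 6.53, 6.37 and 6.46 at 72 h, a range of 0.16. Without replicate 1 at 24 h, 7 of the 26 fell.

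**Figure D3:**
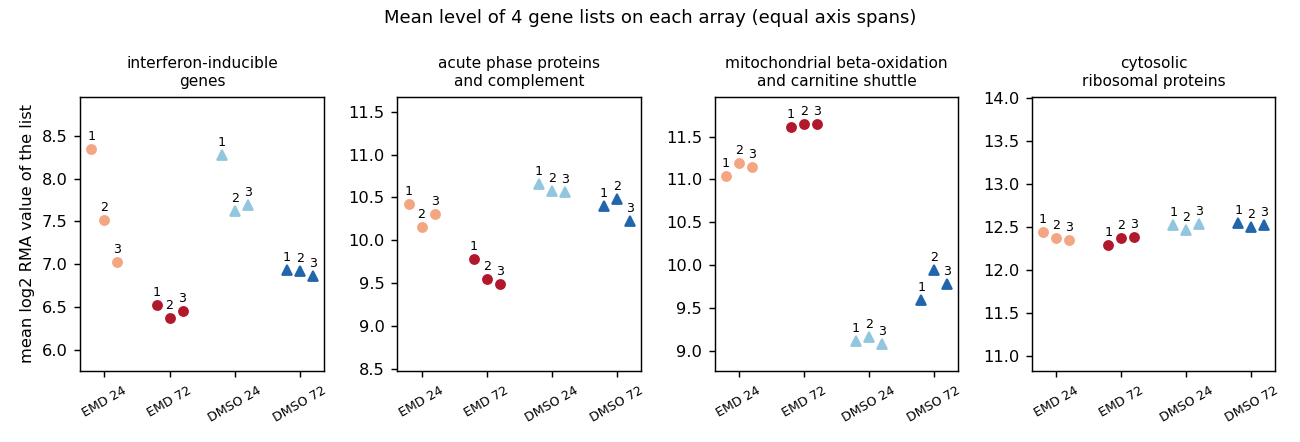
Mean log2 RMA value (y axis, the same span in each panel) of 4 gene lists on each of the 12 arrays of EMD 30 µM (circles) and DMSO (triangles) at 24 h and 72 h, with the replicate number over each point. The interferon-inducible genes spread over 1.31 at 24 h and 0.16 at 72 h under EMD, while the 15 ribosomal protein genes stayed between 12.29 and 12.55 on all 12 arrays.

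The promoters of these genes are shown because the response element that interferon-activated factors bind is a short sequence that can be read directly. Of the 13 genes that fell, 8 have an entry among 33469 RefSeq promoters (assembly GRCr8, 300 bases around each start). The core of the interferon-stimulated response element, GAAA and GAAA separated by any 2 bases and searched on both strands, was found in 5 of the 8, and in 8 of 11 entries of list members that did not pass. It occurs in 3.92% of all the promoters. The stretches around it, upstream of the start and 5′ to 3′ along the gene's strand, carry the matches in capitals, which on the opposite strand read as the reverse complement. Oas1a holds 2 overlapping matches.
Irf7: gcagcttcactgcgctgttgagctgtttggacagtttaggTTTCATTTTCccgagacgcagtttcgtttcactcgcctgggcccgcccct
Oas1a: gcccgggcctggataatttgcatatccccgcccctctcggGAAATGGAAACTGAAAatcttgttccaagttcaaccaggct
Ifitm3: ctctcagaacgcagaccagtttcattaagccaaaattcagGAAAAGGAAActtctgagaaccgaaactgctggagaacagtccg
Tap1: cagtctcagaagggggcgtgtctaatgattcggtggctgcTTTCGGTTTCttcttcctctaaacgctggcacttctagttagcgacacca
Ifi27: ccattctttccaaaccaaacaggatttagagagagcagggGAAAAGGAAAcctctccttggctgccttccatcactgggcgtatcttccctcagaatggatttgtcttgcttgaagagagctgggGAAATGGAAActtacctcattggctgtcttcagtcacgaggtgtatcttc
They lie at chr1:205800043-205800132 (minus strand), chr12:41330385-41330465 (plus), chr1:205541759-205541842 (minus), chr20:4668615-4668704 (minus) and chr6:128355103-128355277 (plus), in the order shown. The matched genes changed by -2.62 (Irf7), -2.12 (Oas1a, an oligoadenylate synthetase), -1.78 (Ifitm3, a membrane protein that blocks viral entry), -1.47 (Tap1, a peptide transporter of antigen presentation) and -0.67 (Ifi27). A match is a description of the letters and says nothing of binding in these cells.

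The element to which the peroxisome proliferator-activated receptors bind, a direct repeat spaced by 1 base, was searched in the same way. Among the 43 genes that rose in the lists of beta-oxidation, peroxisomes, fatty acid uptake and lipid droplets, 39 have a promoter entry. None held AGGTCA followed by any 1 base and AGGTCA, which occurs in 0.0538% of all promoters, and 1, Fabp1, held the looser form with any base at the fourth position of each half-site, which occurs in 0.415%. Fabp1, the liver fatty acid binding protein, changed by 0.75, and by 0.72 in DMSO. Its stretch at chr4:104749223-104749315 (plus strand, GRCr8) reads:
Fabp1: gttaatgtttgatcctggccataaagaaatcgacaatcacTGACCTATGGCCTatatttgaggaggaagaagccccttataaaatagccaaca
The window covers only the start of each gene, so other sites were not looked at. A STAT element, TTCNNGGAA, which factors of the acute phase response bind, was in 3 of 13 entries of acute phase and complement genes that fell (Hamp, Itih4 and Serpina3n), in 1 of 14 of the other members, and in 4.94% of all promoters.

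Of 31 NF-kB response genes and chemokines, 5 fell and none rose, beside 7.88% and 7.76% of all genes. In a fit on only the arrays compared 9 fell, with array weights 8, each with 1 rise, and with the replicate number as a block 10. Cxcl9, a chemokine induced by interferon gamma, read 10.07, 10.00 and 9.94 and then 7.92, 8.18 and 8.30 (-1.87 ± 0.10, limma adjusted p = 2.18e-08), and fell further in DMSO (-2.51). Cxcl11 and Bcl3 changed by -1.41 and -1.21. Icam1, an adhesion molecule for leukocytes, read 9.71, 8.93 and 9.27 and then 8.41, 7.41 and 7.52, against 0.14 in DMSO, and was not called without replicate 1 at 24 h (-1.32) or replicates 2 (-1.34) or 3 (-1.39) at 72 h. The fifth gene was Nfkb2 (-0.99). Without replicate 1 at 72 h, 8 fell.

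Of 46 genes of the cytoskeleton, TGF-beta targets and mesenchymal genes, 8 fell and 2 rose under EMD (median -0.22), and 2 fell and 8 rose in DMSO (median 0.25). The difference between these counts was not tested. Over all genes 7.88% fell and 7.76% rose under EMD, and 11.9% did so each way in DMSO. The mean level of the 46 genes under EMD was 8.74, 8.20 and 8.62 on replicates 1 to 3 at 24 h, a range of 0.53, and 8.52, 8.17 and 8.33 at 72 h. Replicate 1 was the highest at 24 h for 26 of them, and the mean of replicate 2 hardly moved. Cdh2, N-cadherin, read 10.36, 10.11 and 9.91 and then 9.0, 9.23 and 8.95 (-1.07 ± 0.16), and moved by -0.76 and 0.27 on its other probe sets. Krt8 and Krt18, the keratins of hepatocytes, changed by -0.58 and -0.61, and Vim, vimentin, by -0.54, against -0.04, -0.06 and 0.27 in DMSO. Ccn1, a matrix protein of TGF-beta and YAP responses, changed by 0.76 against 2.17 in DMSO, and was not called under EMD without replicate 2 at 24 h or replicates 1 or 3 at 72 h (0.53 to 0.94 over the 6 omissions). The 8 falls were 4 without replicate 1 at 24 h and 13 with the replicate number as a block. Of 25 genes of gap, tight and adherens junctions, 6 fell and 2, Ocln (0.36) and Ctnnb1 (0.30), rose, while 10 fell with the block and 11 with array weights. With any 1 array left out, 1 or none rose. In DMSO 1 fell and 5 rose. Cldn2, a pore-forming claudin, read 6.91, 6.03 and 6.47 and then 4.64, 4.11 and 4.68 (-1.99 ± 0.30, adjusted p = 0.000299). Gjb2, connexin 26 of gap junctions, read 9.69, 9.32 and 9.02 and then 8.65, 8.43 and 8.45, and Jup and Cgn, of desmosomes and tight junctions, changed by -0.75 and -0.67. Of 42 matrix genes, 2 rose, the collagen Col5a2 (2.01) and the protease inhibitor Serpine2 (1.82), and 3 fell, Fbln1 (-0.44), Col18a1 (-0.65, not called without replicate 1 at 24 h or replicate 3 at 72 h) and Timp3 (-0.84). Over all genes 7.76% rose and 7.88% fell, so these counts do not set the matrix list apart. In DMSO 6 of the 42 rose and 3 fell. Under EMD 19 of the 42 lay under the array medians at both times. Serpine2 read 8.61, 9.32 and 9.05 and then 10.55, 10.93 and 10.96. Without replicate 1 at 24 h, 1 of the 42 fell, and 4 genes rose with the block.

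The other lists held few calls. Over all genes 7.76% rose and 7.88% fell, and some of these lists lay over a share. They included the clock, proteasome and NRF2 lists for rises, the endoplasmic reticulum list for falls and the p53 list for both. Of 44 genes of the cell cycle and DNA replication, 2 rose and 3 fell, the largest being Cks2 (-1.77), and 23 of the 44 lay under the array medians. Of 20 p53 targets and apoptosis regulators 2 rose and 2 fell, with Fas, a death receptor, at -0.60 ± 0.11. Fas moved by -0.03 and -0.26 on its other probe sets. Of 26 NRF2 targets 3 rose and 1 fell, with Gsr, glutathione reductase, at 1.48 ± 0.13. Of 31 genes of endoplasmic reticulum stress 1 rose and 4 fell, with Slc7a1, an arginine importer, at -0.54. Of 25 genes of glucose metabolism 2 fell, the glucose transporters Slc2a1 (-0.92) and Slc2a2 (-0.86), and none rose. Of 17 clock genes 3 rose, with Tef at 0.99 and Dbp at 0.70. Of 26 proteasome subunits 4 rose and 1 fell, with Psma3 at 0.87 and Psmd1 at -0.73. Of 15 cytosolic ribosomal proteins 1, Rpl22, fell (-0.28), a call lost without any 1 array, and their median was -0.02. With the block 4 cell cycle, 5 NRF2, 3 endoplasmic reticulum and 5 clock genes rose. Single omissions brought the 3 cell cycle falls to 1 (replicate 1 at 24 h, replicate 3 at 72 h) and its 2 rises to 1 (replicates 1 or 2 at 24 h, 1 or 3 at 72 h), the NRF2 fall to none (replicates 1 or 2 at 24 h, 2 or 3 at 72 h), the endoplasmic reticulum rise to none (replicate 1 at 72 h), the 2 p53 target rises to none (replicates 1 or 2 at 24 h, 2 or 3 at 72 h), the 4 endoplasmic reticulum falls to 1 (replicates 1 or 2 at either time) and the 4 proteasome rises to 2 (replicates 1 or 3 at 24 h, 2 or 3 at 72 h).

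Of 11 markers of the hepatocyte, 7 did not pass the test and 4 fell. Alb, albumin, read 14.67 to 14.71 at 24 h and 14.75 to 14.77 at 72 h, near the top of the scale. Ttr, Apob, Cps1, Asgr1 and Asgr2 changed by -0.17 to 0.21 and did not pass, nor did Tat (1.04, adjusted p = 0.063), which passed with the replicate block. The other probe set of Apob, with the lower mean, rose by 0.51 (adjusted p = 0.0133). The 4 that fell, beside 7.88% of all genes, were Hnf4a (-0.44), Apoa1 (-0.49), Serpina1 (-1.03) and Cyp2e1 (-2.14). In DMSO 2 of the 11 fell and 1 rose, and the difference of the time changes was called downward for 2. Hnf4a, a transcription factor of hepatocytes, was not called without replicates 2 or 3 at either time (-0.44 to -0.34), and fell on only 1 of its 3 probe sets. Of 14 Kupffer cell and macrophage markers 4 fell, 7 with the replicate block and 2 without replicate 1 at 24 h. Cd68 read 8.45, 8.21 and 7.44 and then 6.89, 5.87 and 6.83, Lyz2 changed by -1.42, C1qc by -0.89 and Clec4f by -0.87. C1qc was not called without replicates 1 or 3 at 24 h or 2 or 3 at 72 h (-0.94 to -0.68), nor Clec4f without replicate 1 at 24 h (-0.67). Their mean level was 5.24 to 5.56 at 24 h and 4.79 to 5.04 at 72 h, and 5 of the 14 fell in DMSO. These markers moved in the same direction as the interferon-inducible, acute phase and NF-kB genes, and their part in those results was not tested. Of 14 stellate cell and fibroblast markers 2, Rgs5 (1.06) and Pdgfra (0.38), rose, and 13 lay under the array medians. Pdgfra was not called without any single array but replicate 3 at 24 h (0.34 to 0.44 over the 6 omissions). Of 11 endothelial markers 1, Eng, rose (0.72), and of 8 cholangiocyte markers none was called.

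The time change itself differed between EMD 30 µM and DMSO for 292 probe sets (0.941%), and for 69 genes upward (0.485%) and 116 downward (0.816%), in the limma test of the difference of the 2 time changes. Of the 69 upward differences, 42 belonged to genes that rose under EMD and were not called in DMSO. A further 15 were genes that fell in DMSO and were not called under EMD. Of the 116 downward ones, 64 were genes that rose in DMSO and were not called under EMD, and 26 were genes that fell under EMD and were not called in DMSO. Another 10 rose in both, less so under EMD. The count depends on the arrays used, from 123 to 475 probe sets without a single array, and was 924 with the replicate block, as given with the other settings in the closing section.

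**Figure D4:**
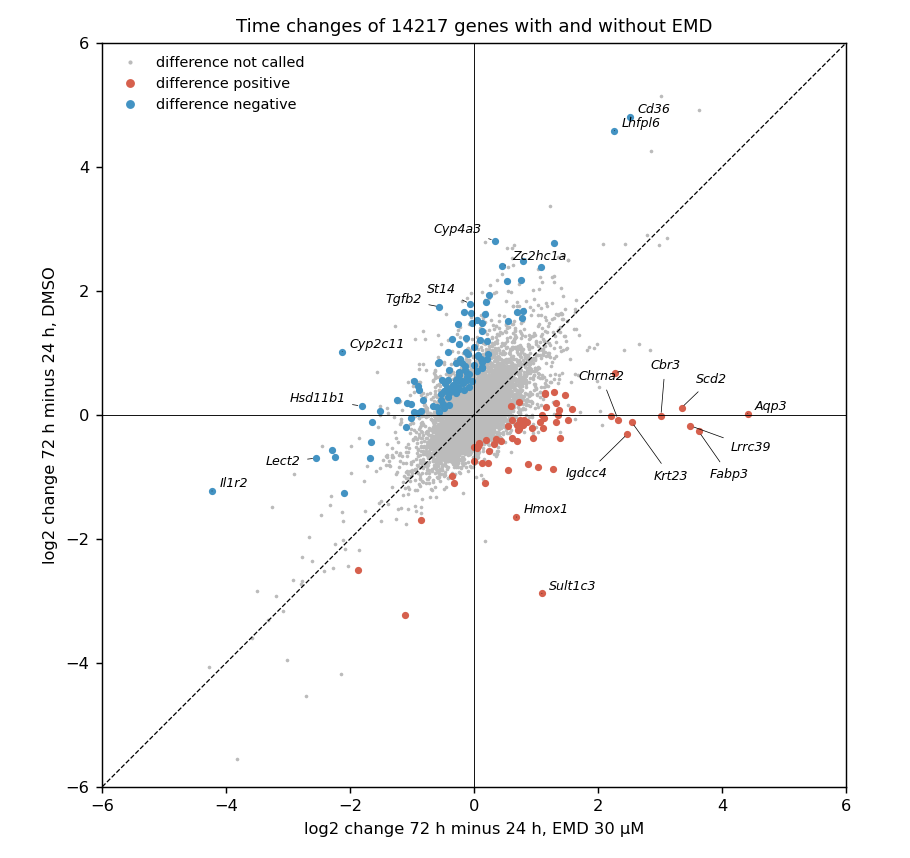
Log2 change from 24 h to 72 h under EMD 30 µM (x axis) and under DMSO (y axis) for 14217 genes, with genes whose 2 time changes differed in red (more positive under EMD, 69) and blue (more negative, 116), and the line of equal change dashed. The red genes at the right lie near 0 on the DMSO axis, and Cyp4a3, Tgfb2, St14 and Zc2hc1a lie between -0.56 and 0.44 on the EMD axis and between 1.74 and 2.81 on the DMSO axis.

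Aqp3, Fabp3, Lrrc39, Scd2, Cbr3 and Krt23 were among the 10 largest upward differences, with the values given above, at 2.66 (Krt23) to 4.39 (Aqp3). Igdcc4, a surface protein of the immunoglobulin family, read 3.96, 3.53 and 3.92 and then 6.27, 6.11 and 6.43 under EMD, and 3.02 to 3.68 on the DMSO arrays. Its other probe set moved by 0.18 under EMD. Chrna2, a nicotinic receptor subunit, read 6.81, 8.03 and 7.51 and then 9.27, 9.92 and 10.12, and 3.64 to 4.54 in DMSO. The other 2 genes differed mainly through a fall in DMSO. Sult1c3, a sulfotransferase, read 6.93, 6.45 and 6.58 and then 8.46, 7.72 and 7.05 under EMD (1.09, adjusted p = 0.12), and 6.65, 6.50 and 7.30 and then 3.87, 4.07 and 3.86 in DMSO, a difference of 3.97 ± 0.62 (adjusted p = 0.00589). Hmox1, heme oxygenase 1, read 11.94, 11.40 and 10.80 and then 12.15, 12.04 and 11.98 under EMD. In DMSO it went from 11.68, 11.48 and 12.37 to 10.49, 9.87 and 10.22, a difference of 2.33 that was not called without replicate 2 of DMSO at 72 h (2.17). The call of Cbr3 was lost without 11 of the 12 arrays in turn (2.62 to 3.65 over the 12).

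The 10 largest downward differences were of several kinds. Cyp2c11 (-3.15 ± 0.50, adjusted p = 0.00645) fell under EMD and rose in DMSO. Its DMSO rise of 1.02 lay just under the threshold (limma adjusted p = 0.0497). Il1r2 (-3.0), Hsd11b1 (-1.95) and Lect2 (-1.85) fell under EMD and less or not in DMSO. Hsd11b1, which regenerates active glucocorticoid, read 11.59, 11.74 and 12.09 and then 10.14, 9.59 and 10.24, against 11.84 to 12.50 on the DMSO arrays. Lect2, a hepatocyte-secreted chemotactic protein, read 12.16, 11.76 and 11.98 and then 9.46, 9.50 and 9.29. Cd36 (-2.28) and Lhfpl6 (-2.32) rose in DMSO by more than under EMD, but the other probe set of Lhfpl6 gave a difference of 0.27 that did not pass. Cyp4a3 (-2.48), Tgfb2 (-2.31), Zc2hc1a (-1.96) and St14 (-1.86) rose in DMSO and did not pass under EMD. In a fit on only the arrays compared, Cyp4a3 passed under EMD (limma adjusted p = 0.0364). The differences of Tgfb2 and Zc2hc1a were not called in that fit. The other probe set of Zc2hc1a gave a difference of -0.4, and that of Tgfb2 -1.32. St14, the surface protease matriptase, read 7.19, 6.96 and 7.38 and then 7.12, 7.07 and 7.12 under EMD, and 6.46, 6.15 and 6.33 and then 8.30, 8.56 and 7.44 in DMSO. The calls of Cd36, Lhfpl6, Tgfb2 and Zc2hc1a were lost without 6, 10, 8 and 8 of the 12 arrays in turn, at values over the 12 omissions of -2.56 to -2.0, -2.67 to -2.14, -2.67 to -1.89 and -2.26 to -1.62.

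**Figure D5:**
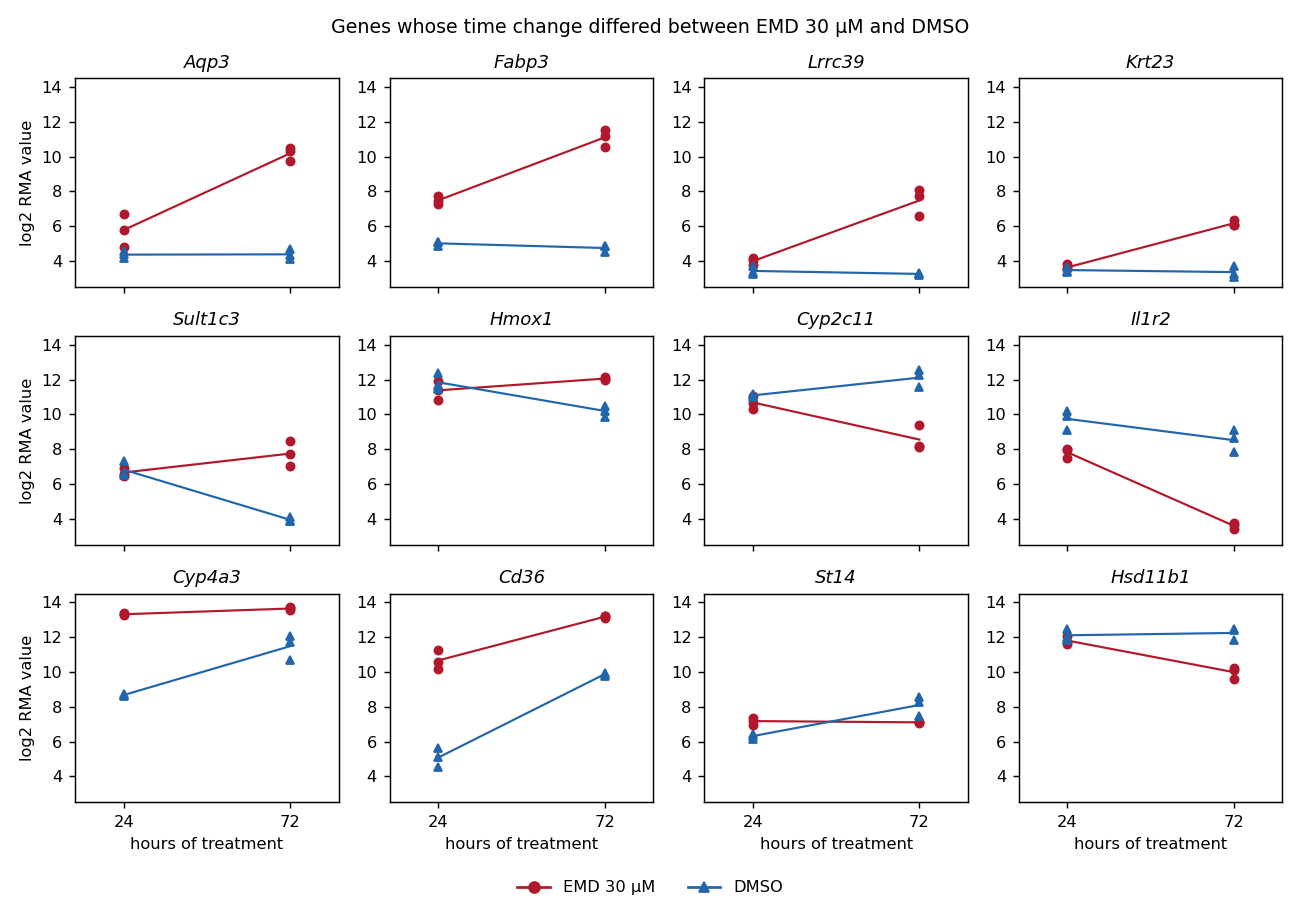
Log2 RMA value (y axis) at 24 h and 72 h (x axis) of 12 genes whose time change differed between EMD 30 µM (circles) and DMSO (triangles), 1 point per array, with lines joining group means. Aqp3, Fabp3, Lrrc39 and Krt23 rise in the EMD lines and stay level in DMSO, Sult1c3 and Hmox1 fall in DMSO, Cyp2c11 and Hsd11b1 fall only in the EMD lines, Il1r2 falls in both and more under EMD, Cd36 rises in both and more in DMSO, and Cyp4a3 and St14 rise in DMSO.

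Of the 36 acute phase and complement genes, 4 had a downward difference (Il1r2, Itih4, A2m and Serpina1) and none an upward one. Their median difference was -0.38 against 0.01 over all genes. Over all genes the difference was called upward for 0.485% and downward for 0.816%. The 46 genes of the cytoskeleton list held 3 downward (Tgfb2, Ccn1 and Tubb2a, median -0.53). The 25 of the junction list held 3 (Gjb2, F11r and Dsg2, median -0.43). The 21 genes of the synthesis list held 3 upward (Scd2, Fads2 and Scd) and 1 downward (Fads3), with a median of 0.53. The 5 genes called upward under EMD and downward in DMSO were Oat, an ornithine aminotransferase, Ucp3, the kinetochore gene Spc24, Cyp3a23-3a1 and the lysosomal glucosidase Gaa, with differences of 0.84 to 1.86, and all 5 differences were called. Of the 12 called the other way 11 were, Aida missing the threshold (-0.85, adjusted p = 0.0507). These genes were picked for 2 calls of opposite sign, and the difference comes from the same arrays. A call of the difference was therefore close to given in advance and adds no separate evidence. Some of the picking calls lay near the threshold, such as the fall of Oat in DMSO (limma adjusted p = 0.0482). The list members and genes of this paragraph were named after their values were seen.

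The cultures at EMD 100 µM changed by 3843 probe sets between 24 h and 72 h (12.4%). The difference of the time change between 30 µM and 100 µM was called for 2 probe sets (0.00644%), with 1804 at an unadjusted p under 0.05, and 1 of the 2 has a gene name. Cd302, a C-type lectin, read 9.82, 9.68 and 10.02 and then 9.95, 10.08 and 9.89 at 30 µM (0.13 ± 0.15) and changed by -1.40 at 100 µM, a difference of 1.54 (limma adjusted p = 0.0299), not called without 9 of the 12 arrays in turn (1.42 to 1.66 over the 12) or with the replicate block (adjusted p = 0.053). For the genes above, Aqp3 rose by 4.41 at 30 µM and 3.55 at 100 µM, Fabp3 by 3.62 and 3.0, and Il1r2 changed by -4.23 and -4.31. A difference that misses the threshold does not show that the doses acted alike.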

How the data were processed

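RNA of 18 cultures of rat primary hepatocytes was hybridised to Affymetrix rat genome arrays. The authors computed the deposited log2 values by RMA in Expression Console, a version of which neither labels nor methods name. RMA equalises the arrays, so a shift of most genes would be removed. The deposited table was used as it was. Of 31099 probe sets, 57 controls were left out. Of the rest, 20826 have 1 gene symbol, 436 several and 9780 none in the platform table, and 20758 of the 20826 were updated by gene ID through RefSeq (GRCr8). A gene was read through its probe set with the highest mean, giving 14217 genes. Probe sets of gene families and _s_at or _x_at designs can read several genes.

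limma 3.58.1 in R 4.3.3 (lmFit, eBayes) was fitted to all 18 arrays with 6 group means, which leaves 12 residual degrees of freedom. The p-values were two-sided and adjusted over all 31042 probe sets by the Benjamini-Hochberg method. The comparisons were 72 h minus 24 h in each of the EMD 30 µM, DMSO and EMD 100 µM cultures, and the differences of the first from each of the others. The median SE of the main comparison was 0.116. On simulated arrays with independent noise and 100 probe sets changed by 1, the main test called 93 with the right sign. The test of the difference from DMSO called 72. At a change of 2 these were 98 and 97 of 100. The simulation held no pairing of arrays and far fewer changes than the data, so it does not show how the tests perform on these arrays.

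The study's methods state that cells of each animal received each treatment. Deviations of same-numbered EMD 30 µM arrays correlated at 0.12 to 0.42 over probe sets, and those of differently numbered ones at -0.41 to 0.14. Replicate 3 at 72 h correlated at 0.12 with replicate 3 at 24 h and at 0.14 with replicate 2, so that pair is not singled out. The replicate numbers were taken to pair the 2 times, and a fit with the number as a block was run beside the main one. The labels do not say which animal a number stands for.

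Named genes were the 15 largest rises and falls among called genes whose EMD 30 µM groups did not overlap, the 10 largest differences from DMSO and up to 5 from 100 µM each way, in each of 35 gene lists at most 4 called members of largest change, the 3 receptors, and hepatocyte markers. Other list members given with values, and the promoter motifs, were chosen after their values were seen. The comparison, the members and the lists were chosen with earlier results of these data known. Some list members had no probe set with a single symbol and are not analysed here. Alternatives were other scalings, fits, weights, filters, the block and leaving out each array.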

Additional observations from a re-analysis of the deposited data

Results flagged for a closer look

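The time change differed between the EMD 30 µM and the DMSO cultures, by the test of the difference itself, for 292 probe sets, and between 30 µM and 100 µM for 2. The explanations of these differences were not tested.

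Among named genes the difference from DMSO (log2 change under EMD minus log2 change in DMSO) was upward for Aqp3 (4.39), Sult1c3 (3.97), Fabp3 (3.89), Lrrc39 (3.66), Scd2 (3.23), Cbr3 (3.03), Igdcc4 (2.78), Krt23 (2.66), Chrna2 (2.40) and Hmox1 (2.33). It was downward for Cyp2c11 (-3.15), Il1r2 (-3.0), Cyp4a3 (-2.48), Lhfpl6 (-2.32), Tgfb2 (-2.31), Cd36 (-2.28), Zc2hc1a (-1.96), Hsd11b1 (-1.95), St14 (-1.86) and Lect2 (-1.85). Between the doses it was 1.54 for Cd302. Groups of 3 arrays were not tested for single outlying arrays, and each array was left out in turn instead.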

How the results depend on the processing

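The 178 named results were refitted under 2437 combinations of result and setting: 2211 kept direction and side of the threshold, 213 lost the call, 8 gained it and 5 changed sign. The sign changes, each without 1 array of EMD 30 µM, were St14 (0.03; -0.18 to 0.03 over the 6 omissions), Ppara (0.01 and 0.02; -0.15 to 0.02) and Pparg (-0.09 and -0.01; -0.09 to 0.33), none of them called. The cause was not tested. Scaling moved the median change of all probe sets by under 0.1, from -0.0121 to 0.00183 after cyclic loess and -0.0194 with equal medians.

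Leaving out 1 array gave 2662 to 3966 calls for EMD 30 µM, 4691 to 5718 for DMSO, 123 to 475 for their difference, 2285 to 4453 for EMD 100 µM and 0 to 179 for the difference between doses. Such fits hold fewer arrays. In fits on only the arrays compared, 3997 probe sets were called for DMSO, 2315 for EMD 100 µM and 0 for the difference between doses. With array weights, 641 were called for the difference from DMSO, 6849 for EMD 100 µM and 45 for the difference between doses. With the replicate block, 5530 were called for EMD 30 µM, 924 for its difference from DMSO and 1 for the difference between doses. The numbers were taken to pair the EMD 30 µM arrays, where all same-numbered correlations were over 0.1, whereas over EMD and DMSO together 17 of 18 were. The block changed the call of 2 named results, Tat and Cd302, and counts of list members by over 1.5 times where the report gives them. For the counts of called probe sets in the 5 comparisons, settings not named here stayed within 1.5 times, except leaving out 1 array.

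Array weights and the fit on only the arrays compared also moved list counts of 3 or fewer by over 1.5 times. One or both also moved larger list counts that far, such as those of the peroxisomal, NF-kB and junction lists, as given with them. With 3 arrays a group, a change that did not pass is not shown to be absent, and probe sets under the array medians give folds that depend on background.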
